A study of Mus musculus with 12 samples.

Results

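The genes described here are 40 imprinted genes of the mouse, that is, genes of which the copy inherited from 1 parent is expressed while the other is silent, in some or all tissues. They were chosen by symbol as known imprinted genes, a rule that uses no measured value, and 39 of the 40 had a row among the 78317 genes of the count table. Zrsr1 had no row under its gene identifier and was not analysed here. RNA was measured by bulk sequencing of heart ventricle from 12 C57BL/6J mice, which were not injured themselves. Of these, 6 were offspring of males that had received a cardiac cryoinjury (an injury made by freezing) on postnatal day 1, and 6 were offspring of uninjured males. The labels place collection at 3 wpp and also call the offspring adult, and they name no sire, litter or sex for a single animal, only 3 males and 3 females in the first group and 4 males and 2 females in the second. Injured-sire replicate 16, named in the labels as an outlier that the submitters set aside, was left out of the comparison, so that 5 libraries were compared with 6. The numbers of males and females above include replicate 16. C57BL/6J is inbred and reads were counted per gene, so the copies from the 2 parents could not be told apart. Each value is the summed output of both copies, and imprinting itself was not measured.

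Imprinted genes lie in clusters, here called domains, and a domain is governed by a control region whose DNA is methylated on the copy from 1 parent, a mark set in the germ line. In several domains the unmethylated copy makes a long noncoding RNA that silences neighbouring protein-coding genes on the same chromosome, as Airn does for Igf2r and Kcnq1ot1 for Cdkn1c. Many paternally expressed genes, such as Igf2, promote fetal growth, many maternally expressed ones, such as Cdkn1c, Igf2r and Grb10, restrain it, and a large part of the group is turned down in most organs after birth. The comparison by sire treatment asks whether the output of these genes differs in the hearts of offspring.

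Total counts per library ran from 30537315 to 42090257. The number of genes detected by 1 or more counts was 22972 ± 803 (SD) over the 5 injured-sire libraries and 25093 ± 1065 over the 6 from uninjured sires (exact two-sided permutation p = 0.00866, of which 0.00216 is the smallest possible). Cardiomyocyte genes of the ventricle, such as Myl2 and Myh6, summed to 87605 to 100847 CPM (counts scaled to library size) in the first group and 83807 to 95571 in the second. Atrial cardiomyocyte genes, such as Nppa and Myl7, were also present and summed to 3837 to 4387 CPM against 3560 to 4204. Of 8 tested, 7 were higher, and 1, Bmp10, had an edgeR adjusted p below 0.05 (0.0243), against 0.105% of all genes. Lung and airway genes summed to 45.5 to 732 CPM against 0.974 to 452, fat genes to 1331 to 2122 against 896 to 1883, and nerve and glial genes to 42.1 to 85.9 against 30.2 to 58.6. The fold change was above 0 for 11 of 11, 13 of 14 and 10 of 11 of their genes tested, and no gene of these 3 lists was at 0 in all libraries. Of 11 marker lists, smooth muscle and pericyte genes had the smallest exact permutation p for the summed level (0.0108, adjusted 0.119 over the lists). They summed to 2061 to 2355 CPM in the injured-sire libraries against 1785 to 2066. Of the 10 genes, 8 were higher, and 7 had an unadjusted p below 0.05 (edgeR), against 8.96% of all genes. The 2 lower ones were Kcnj8 (log2 fold change -0.16), which is among the 7, and Abcc9 (-0.078). The largest increases were those of Cnn1 (0.69) and Myh11 (0.47), and the smallest those of Rgs5 (0.0055) and Pdgfrb (0.067). Of 10 fibroblast genes, 6 were higher and 4 lower. An unadjusted p below 0.05 (edgeR) was reached by 5 of them, Postn, Col1a1, Col1a2 and Mfap5, which were higher, and Dcn, which was lower. Of 7 erythroid genes, 6 were lower and 1 higher, with 2 at an unadjusted p below 0.05 (edgeR). Several imprinted genes are also active in fat, nerve and muscle, and the part of such tissue in the differences below was tested only through covariates for the airway and fat genes. For the other lists, such as smooth muscle, nerve, fibroblast, erythroid and atrial genes, it was not tested. In bulk tissue, fewer cells of a type and less RNA per cell cannot be told apart. The sex-linked gene Xist had means of 202 ± 187 CPM (SD) in the 5 injured-sire and 113 ± 174 in the 6 uninjured-sire libraries. Uty, also sex-linked, had 8.96 ± 12.3 and 15.6 ± 11.9.

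The ventricle libraries held transcripts of nearly all the imprinted genes, at levels that spanned more than 3 orders of magnitude (the plot of levels by gene). Which of the tissues present made the transcripts of low level was not tested. To compare genes, CPM were divided by the kilobases of exon of each gene. The highest level was that of Gnas, the gene of the stimulatory G protein alpha subunit, at 95.9 ± 5.96 CPM per kilobase (SD, n = 11 libraries). Next came Nap1l4, a nucleosome assembly protein gene, at 53.1 ± 2.91, the noncoding RNA H19 at 37.8 ± 8.06, and Igf2r, the receptor that clears IGF-II, at 26.2 ± 1.61. Cdkn1c, the cell cycle inhibitor p57, lay at 18.9 ± 1.83, and Blcap (14.2 ± 0.869), the splicing gene Snrpn (13.2 ± 1.10) and Grb10 (11.9 ± 1.23), an adaptor that inhibits insulin and IGF receptors, followed. In this order Blcap, Snrpn and Grb10 lay within the sum of their SDs of a neighbour, whereas the first 5 genes were each further apart than that. Igf2 lay far lower, at 0.996 ± 0.277 CPM per kilobase, and the fetal genes Dlk1 (0.154 ± 0.0662) and Peg10 (0.215 ± 0.0833) lower still. Exons of Igf2 share bases with Gm49394 on the same strand, so the level of Igf2 may be too low. The median over the 37 imprinted genes tested was 2.48 CPM per kilobase, against 2.49 over all 17130 genes tested, and 18 of the 37 lay above the latter.

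**Figure D1:**
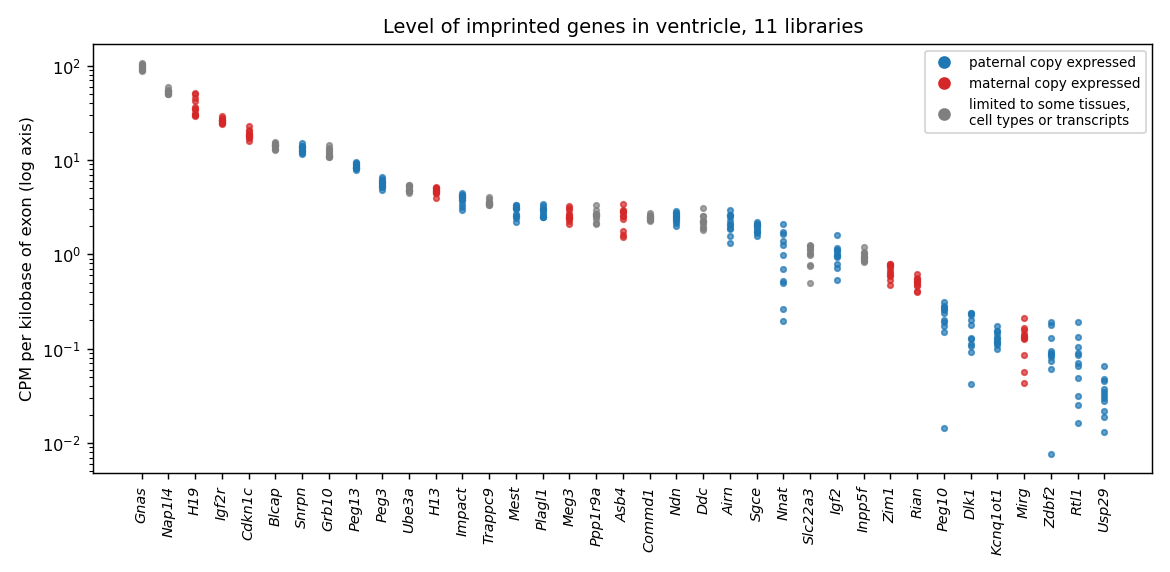
Level of the 37 imprinted genes tested, in CPM per kilobase of exon on a log axis, with 1 point for each of the 11 libraries compared and colours for the parental copy known to be expressed. Gnas, at 95.9, stands at the top, and Usp29, at 0.0340, at the bottom.

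Phlda2 and Magel2 had too few counts to be tested. Phlda2, a growth inhibitor that acts in the placenta, had 0 to 2 counts in any of the 12 libraries. Magel2, a MAGE-family gene, had 0 to 14 counts, and 5 of the 6 uninjured-sire libraries had none. The exons of 12 of the 39 genes share bases with another gene on the same strand. Among them are Igf2 with Gm49394, H19 with Mir675, Snrpn with Snurf, Peg13 with Trappc9, and Meg3, Rian and Mirg with the small RNAs inside them. Reads in shared bases were not assigned by the counting used, so these levels are uncertain and may be too low.

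No imprinted gene passed the test between sire groups. Of 37 tested, 22 were higher and 15 lower in offspring of injured males, and the median log2 fold change was 0.036. Of the 37, 0 had an adjusted p below 0.05 (edgeR quasi-likelihood test, adjusted over all genes), where 18 of all 17130 genes (0.105%) did. An unadjusted p below 0.05 was reached by 5 of the 37 (13.5%), 1 higher and 4 lower, against 8.96% of all genes. No imprinted gene had groups that did not overlap, against 1.05% of all genes. The median absolute log2 fold change was 0.11, as it was over all genes (0.11). With the DESeq2 Wald test 1 imprinted gene passed, Asb4. In what follows, a value with ± and no other unit is a log2 fold change with its SE, offspring of injured minus offspring of uninjured males.

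The data bound the size of the differences between these animals, whose sires and litters are not known. The 95% confidence interval of the log2 fold change lay wholly within a 1.5-fold change in either direction for 27 of the 37 genes and within a 2-fold change for 31. All 30 genes with a mean of at least 3 CPM were among those 31, with estimates from -0.56 to 0.24. The 6 genes whose interval reached a 2-fold change were Zdbf2, Dlk1, Nnat, Peg10, Rtl1 and Usp29, which all had low counts. For these, the data leave room for a 2-fold difference.

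**Figure D2:**
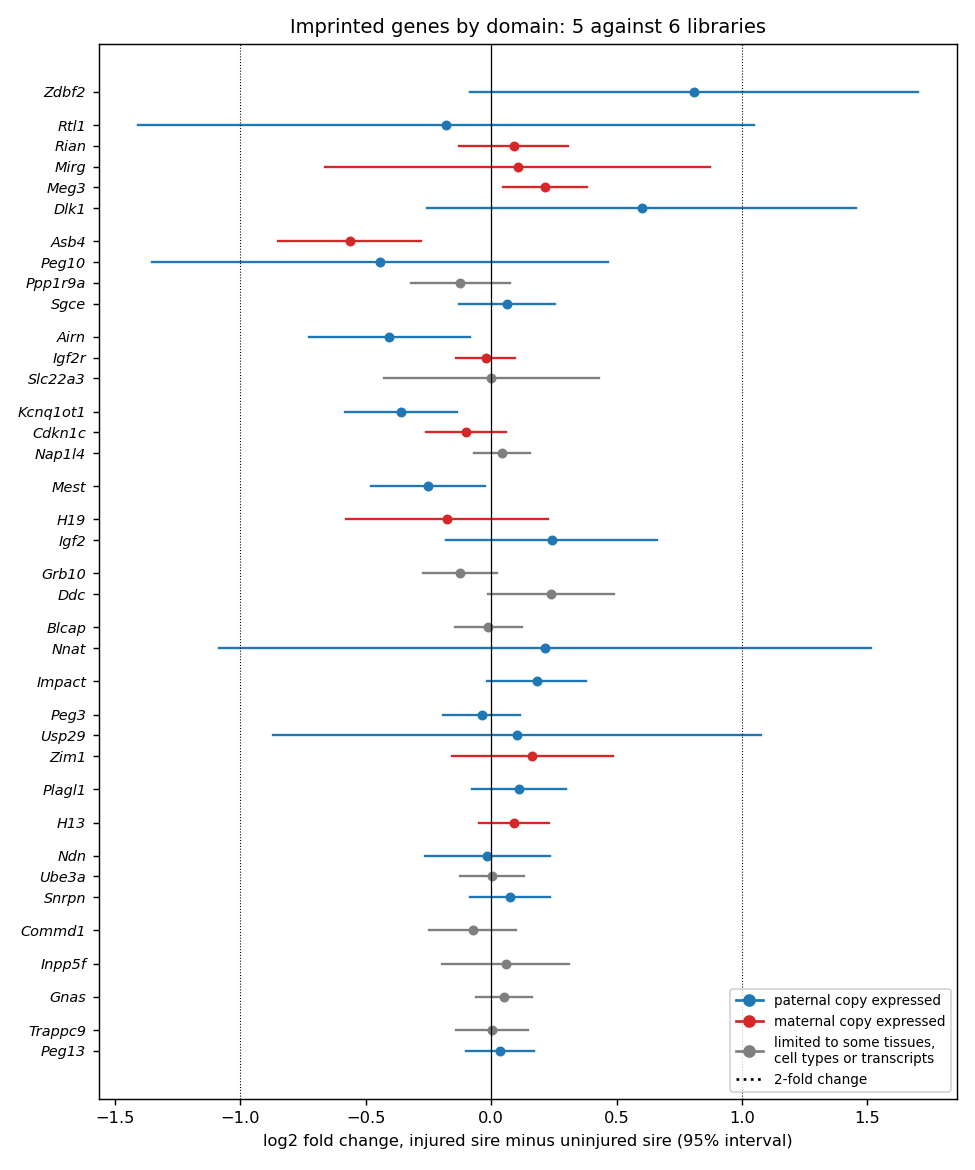
Log2 fold change of each imprinted gene (point) with its 95% confidence interval (line), offspring of injured minus offspring of uninjured males, 5 against 6 libraries, grouped by domain. Intervals of Asb4, Kcnq1ot1, Airn, Mest and Meg3 leave out 0 before adjustment, and the dotted lines mark a 2-fold change, which 6 intervals reach.

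Each class of expressed copy held genes with higher and with lower levels. Of 17 genes expressed from the paternal copy in most tissues, 10 were higher and 7 lower (median log2 fold change 0.064). Of 9 expressed from the maternal copy, 5 were higher and 4 lower (median 0.089). The other 11, whose imprinting is limited to or differs between some tissues, cell types or transcripts, had 7 higher and 4 lower (median 0.0020). None of these had an unadjusted p below 0.05. Grb10 (-0.13), known to be expressed from the maternal copy outside neurons and the paternal copy in neurons, was counted here and not among the maternal genes. These counts lie beside 50.1% higher among all genes, whose median was 0.00019. The adjusted p over all genes was at least 0.248 for the paternal genes, 0.134 for the maternal ones and 0.578 for the rest (edgeR).

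The 5 genes with an unadjusted p below 0.05 were Asb4, Kcnq1ot1, Meg3, Airn and Mest. Their promoters are shown because methylation of CpG dinucleotides is the mark that imprinting rests on. The windows were not chosen as control regions of the domains, and whether they lie in such regions was not examined. Each run is the 250 bases before a RefSeq start site of GRCm38.p6, 5′ to 3′ on the gene's strand, and where a gene had several starts the one with the most CpGs was taken. Capitals mark the CpG dinucleotides. The windows are chr6:5390160-5390409 (plus strand) for Asb4, chr7:143296548-143296797 (minus) for Kcnq1ot1, chr12:109540746-109540995 (plus) for Meg3, chr17:12741061-12741310 (plus) for Airn and chr6:30737800-30738049 (plus) for Mest.
Asb4: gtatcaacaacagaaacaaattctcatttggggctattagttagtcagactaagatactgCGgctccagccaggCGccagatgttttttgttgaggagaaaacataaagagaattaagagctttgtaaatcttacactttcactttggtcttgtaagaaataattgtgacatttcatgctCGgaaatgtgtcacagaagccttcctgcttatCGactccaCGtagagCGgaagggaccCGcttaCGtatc
Kcnq1ot1: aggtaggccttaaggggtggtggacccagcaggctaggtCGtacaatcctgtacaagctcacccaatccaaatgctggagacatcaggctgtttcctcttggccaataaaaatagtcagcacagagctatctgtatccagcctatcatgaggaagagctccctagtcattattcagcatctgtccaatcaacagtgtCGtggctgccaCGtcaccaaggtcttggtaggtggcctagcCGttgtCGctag
Meg3: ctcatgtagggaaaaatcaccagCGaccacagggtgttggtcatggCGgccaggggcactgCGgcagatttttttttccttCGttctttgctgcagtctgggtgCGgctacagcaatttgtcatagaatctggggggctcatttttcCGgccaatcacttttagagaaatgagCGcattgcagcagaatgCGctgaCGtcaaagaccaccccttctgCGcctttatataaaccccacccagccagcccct
Airn: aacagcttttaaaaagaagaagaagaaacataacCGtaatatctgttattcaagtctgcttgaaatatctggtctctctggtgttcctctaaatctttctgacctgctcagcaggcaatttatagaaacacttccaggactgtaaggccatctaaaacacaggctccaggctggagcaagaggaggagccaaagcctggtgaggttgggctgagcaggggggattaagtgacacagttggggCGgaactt
Mest: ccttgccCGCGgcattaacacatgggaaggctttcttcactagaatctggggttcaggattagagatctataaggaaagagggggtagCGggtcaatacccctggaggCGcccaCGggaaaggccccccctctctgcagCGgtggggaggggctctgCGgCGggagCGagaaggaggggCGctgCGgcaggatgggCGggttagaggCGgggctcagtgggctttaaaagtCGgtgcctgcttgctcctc

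The 5 windows differ in CpG content: Mest holds 14, Meg3 10, Asb4 8, Kcnq1ot1 5 and Airn 2. Over the 31 imprinted genes with a RefSeq promoter the median in the CpG-richest window was 12, against 6 over all 27025 genes with one. The genes without an entry were H19, Peg10, Sgce, Trappc9, Peg13, Rtl1, Impact, Cdkn1c and Nap1l4. The motif TGCCGC, which the imprint-keeping protein ZFP57 binds when its CpG is methylated, was searched on both strands. It occurs 2 times in the Mest window and 1 time in that of Meg3, and not in the windows of Asb4, Kcnq1ot1 and Airn. Of the 31 imprinted genes 5 had it in a window (Zdbf2, Mest, Zim1, Plagl1 and Meg3), or 6 of their 49 windows. Over all genes, 9.84% had it in a window, and 8.68% of all 32851 windows held it. These are matches of letters in windows not chosen as control regions, and no methylation was measured.

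The smallest p belonged to Asb4, a maternally expressed gene for an ankyrin repeat and SOCS box protein (chromosome 6, 5383386 to 5433022, GRCm39). Its level in the 5 injured-sire libraries was 10.1, 6.89, 6.35, 6.05 and 9.35 CPM, and in the uninjured-sire libraries it ran from 9.94 through a median of 11.3 to 13.3. The highest injured-sire library, replicate 12, lay just above the lowest uninjured-sire library, and the other 4 lay below all 6. Replicate 16, not in the comparison, had 9.56 CPM. The log2 fold change was -0.56 ± 0.138 (SE), from 11.4 ± 1.11 to 7.74 ± 1.84 CPM (SD), with an edgeR adjusted p of 0.134 and an unadjusted p of 0.000492. Asb4 passed in 3 of the 19 alternative analyses: without injured-sire replicate 12 (edgeR adjusted p = 0.0425), in the DESeq2 Wald test (DESeq2 adjusted p = 0.0240), and without a filter on low counts (edgeR adjusted p = 0.00137). Over all 19 the estimate stayed between -0.68 and -0.40, the latter with airway and fat genes as covariates, where the edgeR adjusted p was 0.417.

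Estimates for its neighbours on chromosome 6 were closer to 0, with a wide error for Peg10. Sgce, the epsilon-sarcoglycan gene, had 0.064 ± 0.0918, and Ppp1r9a, a neurabin gene, -0.12 ± 0.0942 (log2 fold change and SE). Peg10, a gene derived from a retrotransposon, had -0.44 ± 0.434 on 4 to 72 counts a library. Injured-sire replicate 15 had 0.0964 CPM of Peg10 while the rest of its group had 0.989 to 1.89. Farther along the chromosome, Mest, a paternally expressed hydrolase gene (30723546 to 30748464), had 10.7, 9.54, 12.3, 8.75 and 10.02 CPM in the injured-sire libraries and 10.1 to 13.2 with a median of 12.4 in the others. Of the 5, 3 lay below every uninjured-sire library, and its log2 fold change was -0.25 ± 0.109 (edgeR adjusted p = 0.492).

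Airn and Kcnq1ot1, the paternally expressed RNAs that silence their domains in cis, had lower levels in offspring of injured males, and neither passed the test. Kcnq1ot1 (chromosome 7, 142731402 to 142850327, minus strand) had 9.30, 10.7, 12.3, 10.2 and 11.04 CPM in the injured-sire libraries, and 11.3 to 16.1 with a median of 14.002 in the uninjured-sire libraries. Of the 5, 4 lay below every uninjured-sire library, and replicate 16 had 13.5 CPM. The log2 fold change was -0.36 ± 0.108 (SE, edgeR adjusted p = 0.248). Airn (chromosome 17, 12960198 to 13079299, plus strand) had 23.9, 13.7, 20.2, 16.4 and 22.2 CPM against 19.5 to 31.3 with a median of 26.8. Only replicates 13 and 15 lay below all uninjured-sire libraries, and the log2 fold change was -0.41 ± 0.149 (SE, edgeR adjusted p = 0.405). With airway and fat genes as covariates it was -0.22 (edgeR adjusted p = 0.744), and without a filter on low counts Airn passed (edgeR adjusted p = 0.00104).

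Estimates for Igf2r and Cdkn1c, which these RNAs silence, were closer to 0. The difference between an RNA and its target was not tested. Igf2r, which overlaps Airn on the opposite strand, had 241, 230, 246, 238 and 254 CPM in the injured-sire libraries against 221 to 274 with a median of 245. Its log2 fold change was -0.022 ± 0.0570 (95% confidence interval -0.14 to 0.10), and it was 0.093 with airway and fat genes as covariates. Slc22a3, an organic cation transporter gene at the far end of the domain, is known to be imprinted in placenta. It had 0.00022 ± 0.206. In the Kcnq1ot1 domain, Cdkn1c had 38.3, 35.2, 38.3, 37.03 and 36.1 CPM against 32.8 to 46.7 with a median of 39.8. Its injured-sire libraries lay inside the range of the others, and its log2 fold change was -0.10 ± 0.0770, or -0.20 with airway and fat genes as covariates and -0.15 and -0.049 without uninjured-sire replicates 22 and 18. Nap1l4, of the same domain, is also known to be imprinted in placenta. It had 159, 168, 156, 166 and 185 CPM against 154 to 170.1 with a median of 162, a difference of 0.044 ± 0.0546 on the log2 scale. Without injured-sire replicate 17, the highest library, it was 0.0035, without injured-sire replicate 14 it was 0.066, with no filter on low counts 0.025 and with airway and fat genes as covariates 0.018. Counting was by strand, so reads of Airn and Igf2r were kept apart. Fewer genes were detected in the injured-sire libraries, as given above, and the part of that difference in the levels of these RNAs was not tested.

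Another group of noncoding RNAs is maternally expressed and comes from the Dlk1-Meg3 domain on chromosome 12. Meg3 (109506877 to 109538165) had 62.7, 52.3, 59.1, 49.98 and 48.5 CPM in the injured-sire libraries, against 40.9 to 56.8 with a median of 46.6. All 5 were above that median, but the uninjured-sire replicate 21, at 56.8, stood among them. The log2 fold change was 0.22 ± 0.0808 (SE, edgeR adjusted p = 0.393), and it was 0.12 with airway and fat genes as covariates (edgeR adjusted p = 0.755). Rian, which hosts small nucleolar RNAs, had 0.089 ± 0.104, and Mirg, which hosts microRNAs, 0.11 ± 0.370. On the paternal side, the Notch ligand gene Dlk1 had 0.60 ± 0.412 on 10 to 53 counts a library, with 0.733, 0.632, 1.35, 1.28 and 1.34 CPM against 0.238 to 1.14. The highest 3 of these lay above every uninjured-sire library. Rtl1, a retrotransposon-derived gene, had -0.18 ± 0.592.

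H19 and Igf2, which share enhancers and are expressed from opposite copies, did not differ past the threshold. H19 (chromosome 7, 142129262 to 142133957) had 83.7, 90.2, 84.8, 99.7 and 145 CPM in the injured-sire libraries and 86.3 to 143 with a median of 112 in the others. Replicate 17 alone stood at the top of its group. The log2 fold change was -0.18 ± 0.179 (SE, edgeR adjusted p = 0.841). It was -0.34 without injured-sire replicate 17 and -0.10 without uninjured-sire replicate 22. Igf2 (142204503 to 142220553), the ligand of IGF receptors, had 6.73, 5.90, 6.29, 3.06 and 9.17 CPM against 4.09 to 6.42 with a median of 5.43. Its log2 fold change was 0.24 ± 0.202 (SE, edgeR adjusted p = 0.796).

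**Figure D3:**
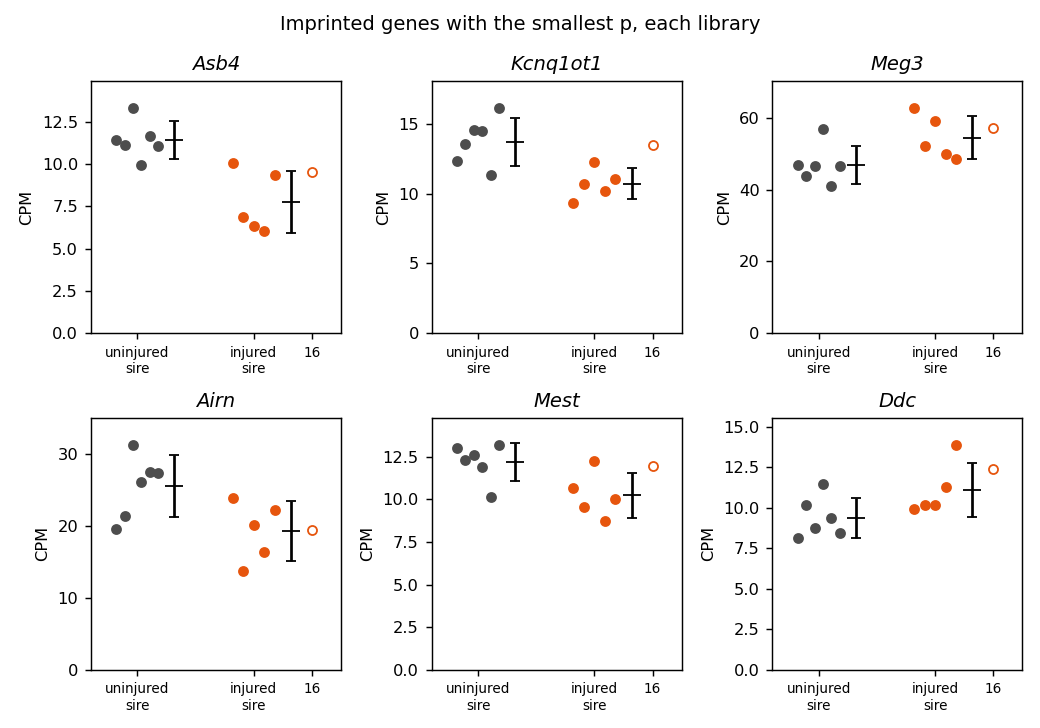
CPM in each library (points) for the 6 imprinted genes with the smallest p, with the mean and SD of each group beside the points, 6 uninjured-sire and 5 injured-sire libraries, and the left-out replicate 16 as an open circle. The groups overlap in all 6 genes, in Asb4 because replicate 12, at 10.1 CPM, lies above the lowest uninjured-sire library at 9.94.

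Among growth inhibitors and signalling genes the differences were small. Grb10 had 96.6, 101, 100.4, 98.6 and 121 CPM against 99.0 to 131 with a median of 112, which gave -0.13 ± 0.0711 on the log2 scale (SE, edgeR adjusted p = 0.641). Ddc, the neighbouring decarboxylase gene that is paternally expressed in the fetal heart, had 9.92, 10.2, 10.2, 11.3 and 13.9 CPM against 8.11 to 11.5 with a median of 9.06. All 5 lay above that median, the log2 fold change was 0.24 ± 0.121 (SE, edgeR adjusted p = 0.578), and without injured-sire replicate 17 it was 0.15. Ndn, the necdin gene, had -0.015 ± 0.119. Gnas had 1025, 1124, 1089, 1151 and 1180.2 CPM against 988 to 1200.4 with a median of 1065, and 0.052 ± 0.0544 on the log2 scale. It was 0.029 without injured-sire replicate 17 and 0.029 without uninjured-sire replicate 22, 0.078 and 0.086 without injured-sire replicate 12 and uninjured-sire replicate 18, 0.033 with no filter on low counts, and -0.0047 with airway and fat genes as covariates. The zinc-finger genes Plagl1 (0.11 ± 0.0900), Peg3 (-0.037 ± 0.0738) and Zim1 (0.16 ± 0.154) and the Peg3 neighbour Usp29 (0.10 ± 0.469) did not pass either. Impact, an inhibitor of the kinase GCN2, had 0.18 ± 0.0946.

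Most of the remaining genes, several of which are known to be imprinted in brain, had fold changes near 0. Ube3a, a ubiquitin ligase gene imprinted in neurons, had means of 102.5 and 102.3 CPM (log2 fold change 0.0029 ± 0.0618), and Snrpn of the same domain had 0.076 ± 0.0765. Trappc9 had 0.0020 ± 0.0691 and Peg13, the noncoding RNA within it, 0.036 ± 0.0660. Blcap had 42.5, 39.14, 43.5, 46.5 and 43.4 CPM against 39.98 to 47.3 with a median of 43.5, and a log2 fold change of -0.011 ± 0.0651. Nnat, which lies inside Blcap and is known from neurons and fat, ran from 0.359 to 3.87 CPM within the uninjured-sire group alone, with 0.22 ± 0.593. Commd1, a trafficking gene, had -0.074 ± 0.0830, the signal peptide peptidase gene H13 0.091 ± 0.0678 and the inositol phosphatase gene Inpp5f 0.059 ± 0.122. Zdbf2, a zinc finger gene with 3 to 87 counts a library, had the largest estimate, 0.81 ± 0.430 (SE, edgeR adjusted p = 0.605), on 2.28, 1.02, 1.65, 0.771 and 2.42 CPM against 0.0974 to 1.19. Of these 5 libraries, 3 lay above every uninjured-sire library and replicate 15 below most of them.

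Ratios between genes of a domain cancel differences that all of a domain's genes share. The log2 ratio of Airn to Igf2r was -3.68 ± 0.288 in the injured-sire and -3.28 ± 0.216 in the uninjured-sire libraries (SD, n = 5 and n = 6), and that of Kcnq1ot1 to Cdkn1c -1.80 ± 0.160 and -1.53 ± 0.202. The ratio of Igf2 to H19 was -4.07 ± 0.554 and -4.43 ± 0.183: it was above every uninjured-sire library in 4 injured-sire libraries and below all of them in replicate 15. Replicate 16, not in the comparison, had -4.52, inside the uninjured-sire range of -4.66 to -4.21. The groups overlapped in all pairs compared. Rian and Meg3, which lie next to each other on the same strand, kept the steadiest ratio of the pairs compared, with an SD of 0.164 over the 11 libraries, against 0.187 and 0.189 for each gene alone. For Dlk1 to Meg3 the SD was 0.799. Peg3 to Usp29 and Sgce to Peg10, pairs with 1 gene of low count, had SDs of 0.677 and 1.20.

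**Figure D4:**
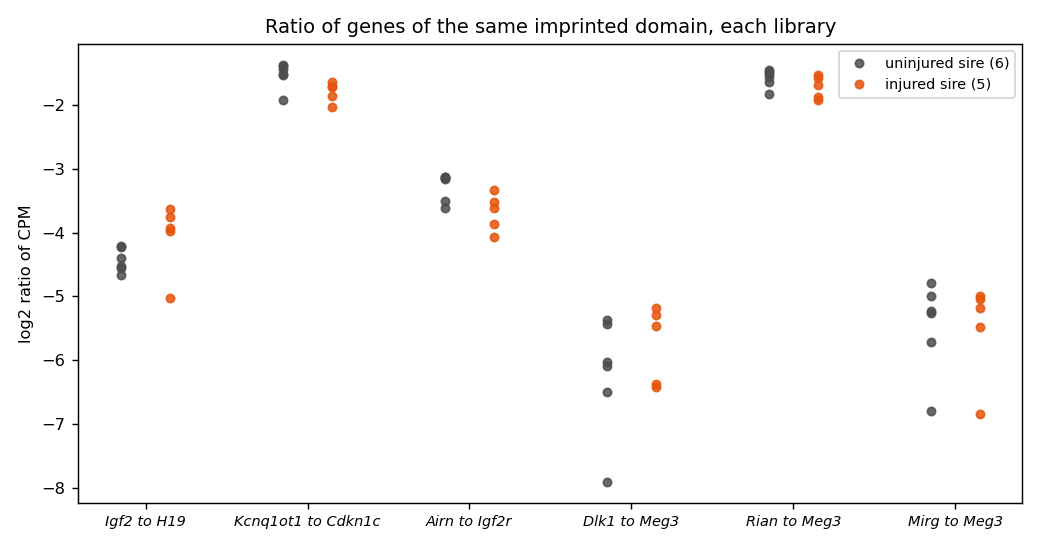
Log2 ratio of CPM of 2 genes of the same domain, with 1 point a library, 6 uninjured-sire and 5 injured-sire libraries. The groups overlap in each pair shown, and for Igf2 to H19 the injured-sire libraries spread more (SD 0.554 against 0.183).

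Genes that set or keep imprints did not pass the test. Of 20 listed, 17 were tested, 8 higher and 9 lower (median log2 fold change -0.0014), 0 called and 0 at an unadjusted p below 0.05 (edgeR), against 8.96% of all genes. The smallest p were those of Uhrf1, which recruits the maintenance methyltransferase (0.53 ± 0.275), Ctcf, the insulator protein that binds the H19-Igf2 control region (-0.11 ± 0.0622), and Zfp57 (-0.31 ± 0.192). Dnmt1, the maintenance methyltransferase, had -0.031 ± 0.0867, and Trim28, the partner of ZFP57, -0.0014 ± 0.0535. Of 22 genes of the IGF and insulin axis, 13 were higher and 9 lower. Of the 22, 0 were called and 2 had an unadjusted p below 0.05 (edgeR), against 0.105% and 8.96% of all genes. These were Pappa, a protease that frees IGF from its binding proteins (0.82 ± 0.269), and Igfbp2, a binding protein gene (1.06 ± 0.498). Both had low levels: the injured-sire and uninjured-sire means were 3.01 and 1.71 CPM for Pappa and 0.871 and 0.417 CPM for Igfbp2. Next was Irs2, an insulin receptor substrate, with 0.63 ± 0.288, whereas the receptor gene Igf1r had 0.051 ± 0.0695. Of 32 other imprinted genes 21 were tested, 11 higher and 10 lower. Of the 21, 0 were called and 2 had an unadjusted p below 0.05 (edgeR), against the same 0.105% and 8.96%. These were Dcn, the decorin gene (-0.15 ± 0.0559), and the potassium channel gene Kcnq1 (-0.19 ± 0.0781), which Kcnq1ot1 overlaps on the opposite strand. Dcn is also on the list of fibroblast genes. Next was Tssc4 (0.19 ± 0.107).

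Over the 12 libraries, the genes whose levels followed H19 most closely were Ybx1 (Spearman's rho = 0.902), A930015D03Rik, Gm20604, Mkrn1 and 2310057M21Rik, the last at 0.860. Igf2 was not among them. These are the highest values over all genes tested, on 12 points that share depth and tissue makeup, and they are given as a description.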

How the data were processed

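Raw read counts per Ensembl gene were deposited by the authors with no normalization, made with featureCounts 2.1.1 (strand setting 2, no multi-mapping reads) on the Ensembl 114 annotation of GRCm39, per the file headers. Exon lengths come from the same deposited table. The submitters' processing notes also name STAR 2.7.10a and Subread 2.0.3. Another 11 sample columns were not used. Of 78317 gene IDs, 51487 were matched to symbols of GENCODE M21, used for names only.

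The 5 and 6 libraries were compared with edgeR 4.0.16 in R 4.3.3: filterByExpr (minimum count 10, total 15), TMM factors, robust quasi-likelihood F test, two-sided, Benjamini-Hochberg adjustment over 17130 genes, threshold 0.05. SEs were derived from the F statistic. CPM used TMM factors of all 12 libraries. The chain was tested on simulated counts. No library was a repeat of another: in the 30 within-group pairs, chi-square over its degrees of freedom was 13.3 to 40.3. Nothing says whether animals shared a sire or litter, so p-values measure only the spread between these animals.

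Members and lists were chosen with earlier results of these data known. Values per library were to be given for the 6 members with the smallest p, the 6 with the highest level and fixed pairs. For each list the 3 genes with the smallest p were to be named. Other members are named to account for all of them, and further list genes were picked after their values were seen. Grb10 and Zdbf2 were also given per library, outside this plan. Alternatives were all 12 libraries, each library left out, DESeq2 1.42.0 size factors, no scaling factor, the DESeq2 Wald test, no filter, 1 CPM in 5 libraries, a sex-linked covariate, and airway and fat covariates. The genes most like Igf2 across libraries are not reported here.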

Additional observations from a re-analysis of the deposited data

Results flagged for a closer look

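Single libraries stood far from the rest of their group for 7 of 74 groups of 1 gene. The criterion used flags about 1 in 20 groups when values are independent and normally distributed. These groups share the same libraries and some genes have few counts, so 7 of 74 cannot be compared with that rate. In offspring of injured males, replicate 17 was highest for H19 (145 CPM, the others 83.7 to 99.7) and for Grb10 (121 CPM, the others 96.6 to 101). Replicate 12 of that group was lowest for Zim1 (3.82 CPM, the others 5.78 to 6.43) and for Mirg (0.550 CPM, the others 1.32 to 1.59). In offspring of uninjured males, replicate 21 was highest for Meg3 (56.8 CPM, the others 40.9 to 46.8), replicate 22 highest for Inpp5f (9.87 CPM, the others 6.82 to 7.79) and replicate 23 lowest for Zdbf2 (0.0974 CPM, the others 0.927 to 1.19).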

How the results depend on the processing

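No imprinted gene was called in 16 of 19 alternatives. The number called was 1 with the DESeq2 Wald test, 2 with no filter on low counts, and 0 to 1 when each library was left out in turn, the 1 being Asb4 without injured-sire replicate 12. The count over all genes was 134 with the DESeq2 Wald test, 236 with no filter, 28 with a filter of 1 CPM in 5 libraries, and 8 to 43 when a library was left out. The low and high ends were without injured-sire replicate 13 and without uninjured-sire replicate 22, and it was 28, 9 and 9 without injured-sire replicates 12 and 14 and uninjured-sire replicate 23. The median log2 fold change of the imprinted genes stayed between 0.0050 and 0.053. For 12 genes with values given per library, 217 of 228 alternative values kept direction and side of the threshold and 4 passed it (Asb4 in 3 alternatives, Airn in 1). A further 7 changed sign, all of genes near 0: Gnas (-0.0047) and Igf2r (0.093) with airway and fat covariates, Igf2r (0.013) and Blcap (0.0037) without uninjured-sire replicate 20, Blcap without injured-sire replicate 13 (0.020) and without uninjured-sire replicate 21 (0.016), and Blcap with no scaling factor (0.0042). When each library was left out, Igf2r ran from -0.050 to 0.013 and Blcap from -0.041 to 0.020. The cause was not tested. No paired analysis was possible because the groups share no replicate number. Few counts, as for Zdbf2 (3 to 87 a library), Dlk1 (10 to 53) and Peg10 (4 to 72), limit what can be seen of those genes.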
